A study of Mus musculus with 32 samples.

Results

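The interleukin 1 family genes measured here in mouse liver were 8 in number, among 22180 genes on the arrays. They were taken by name: the ligands Il1a, Il1b and Il18, the soluble antagonist Il1rn, the soluble binding protein Il18bp, the signalling receptor Il1r1 with its partner chain Il1rap, and the decoy receptor Il1r2. The choice was made with earlier results of these data known. All 8 had a probe set and all were tested, with no filter on low values. The livers came from 32 male wild-type C57BL/6NTac mice aged 14 weeks, and the RNA of each was read on its own whole-transcript array (Affymetrix Mouse Gene 2.1 ST). The mice had fasted for 10 h and then received a gavage of palm oil (2 g/kg) or, as controls, of water. In basal mice the liver was taken 6 h after the gavage under isoflurane. In clamped mice a hyperinsulinemic-euglycemic clamp was started at 6 h, with insulin infused at 15 pmol/kg/min after 110 min of tracer infusion, and the mice were conscious until an intravenous injection of ketamine and xylazine ended the experiment. The groups held 7 control basal, 9 palm oil basal, 7 control clamped and 9 palm oil clamped mice.

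The clamped mice differed from the basal mice in more than insulin. They had carried a jugular vein catheter, placed under ketamine and xylazine 6 to 7 days before, they received labelled glucose, they were killed later and with another anaesthetic, and their animal numbers (15 to 32) did not overlap those of the basal mice (33 to 52). These differences cannot be told apart. No group of mice had the catheter without the insulin.

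Interleukin 1 alpha and interleukin 1 beta bind the same receptor, IL1R1, which signals once the accessory chain IL1RAP has joined it. The signal runs through the adaptor MYD88 and IRAK kinases to NF-kappaB, and in hepatocytes it switches on acute phase genes. IL1RN occupies IL1R1 without signalling, and IL1R2 binds interleukin 1 but lacks the signalling domain. Interleukin 18 is made as a precursor that caspase 1 cleaves, as is interleukin 1 beta, and IL18BP holds the free cytokine in check. In liver, Kupffer cells and recruited myeloid cells are known sources of interleukin 1, and hepatocytes carry the receptor.

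The promoters of 5 transcripts are shown because Il1b and Il1r1 are the genes whose clamped and basal mice did not overlap in either gavage group, Il1a went together with Il1b between mice, and Il1rap is the gene that fell. Il1a and Il1b are neighbours on chromosome 2. On chromosome 1, Il1r1 lies between Il1r2 and Il1rl2, and Il1rn lies beside Il1f10 on chromosome 2. Each sequence runs 5′ to 3′ from 250 bases before to 50 bases after a transcript start in RefSeq (GRCm38.p6), and matches to the searched motifs are in capitals. The Il1a promoter lies at chr2:129309923-129310222 and the Il1b promoter at chr2:129371090-129371389, both on the minus strand. The plus-strand promoters of Il1r1 lie at chr1:40224830-40225129 (promoter 1) and chr1:40266336-40266635 (promoter 2), and that of Il1rap at chr16:26581455-26581754.
Il1a: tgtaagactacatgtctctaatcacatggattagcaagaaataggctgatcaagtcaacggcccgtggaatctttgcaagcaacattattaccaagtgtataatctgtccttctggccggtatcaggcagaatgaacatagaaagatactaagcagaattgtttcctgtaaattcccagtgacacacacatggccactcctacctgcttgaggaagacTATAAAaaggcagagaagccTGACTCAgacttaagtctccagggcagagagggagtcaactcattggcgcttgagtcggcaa
Il1b: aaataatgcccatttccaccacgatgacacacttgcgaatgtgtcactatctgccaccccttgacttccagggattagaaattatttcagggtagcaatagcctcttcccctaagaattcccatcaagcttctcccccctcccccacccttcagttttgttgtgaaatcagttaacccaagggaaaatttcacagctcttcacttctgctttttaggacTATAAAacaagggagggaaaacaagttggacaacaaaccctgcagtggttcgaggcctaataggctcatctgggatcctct
Il1r1 promoter 1: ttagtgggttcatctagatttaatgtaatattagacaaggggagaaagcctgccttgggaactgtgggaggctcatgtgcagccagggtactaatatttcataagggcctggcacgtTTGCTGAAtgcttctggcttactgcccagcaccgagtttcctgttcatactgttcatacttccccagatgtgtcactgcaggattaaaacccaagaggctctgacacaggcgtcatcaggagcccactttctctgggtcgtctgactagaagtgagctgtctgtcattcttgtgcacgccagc
Il1r1 promoter 2: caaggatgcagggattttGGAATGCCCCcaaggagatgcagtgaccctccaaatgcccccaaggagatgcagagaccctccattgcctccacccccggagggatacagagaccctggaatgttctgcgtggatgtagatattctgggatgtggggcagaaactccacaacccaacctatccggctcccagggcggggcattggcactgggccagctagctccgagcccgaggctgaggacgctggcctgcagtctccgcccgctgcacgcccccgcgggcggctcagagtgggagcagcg
Il1rap: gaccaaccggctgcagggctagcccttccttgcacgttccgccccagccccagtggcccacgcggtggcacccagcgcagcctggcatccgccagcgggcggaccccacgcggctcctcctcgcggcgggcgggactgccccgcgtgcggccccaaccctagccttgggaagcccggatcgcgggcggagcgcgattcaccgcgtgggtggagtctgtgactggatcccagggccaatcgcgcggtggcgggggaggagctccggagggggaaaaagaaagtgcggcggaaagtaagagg

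The Il1a and Il1b promoters held TATAAA close to the start, at -32 in Il1a and -31 in Il1b, and Il1a also held the AP-1 motif TGACTCA at -12. Promoter 1 of Il1r1 held the C/EBP motif TTGCTGAA at -133, and promoter 2 held the kappaB motif GGAATGCCCC at -232, which matches on the reverse strand. The Il1rap promoter, with 72% G and C, held no motif of those searched. All 8 genes matched the RefSeq table, with 11 promoters. Of the other promoters, Il1rn promoter 1 held the AP-1 motif TGAGTCA at -141 and Il18bp held the C/EBP motif TTGCGGAA at -49. Il1rn promoter 3 and Il18 held the letters TATAAA on the reverse strand, at 15 and -175. Il1r2 held none. The motifs were searched on both strands. They were the kappaB consensus, found in 4.51% of 32851 promoters of the same length, TTGCNNAA (C/EBP) in 10.8%, TGANTCA (AP-1, which reads the same on both strands) in 7.81%, GAGGAAGT (PU.1) in 3.2%, TATAAA in 13.6% and the glucocorticoid response element (AGAACA and TGTTCT with NNN between them, the same on both strands) in 0.00913%. These are matches of letters, and the arrays did not measure binding. The shares count a match anywhere in the sequence, so 13.6% is not the share of promoters with TATAAA near -31.

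Values are log2 expression values as deposited, in which 1 unit stands for a 2-fold step in signal. Near the background such values understate differences. A difference was called when its limma p-value was under 0.05 after Benjamini-Hochberg adjustment across the 22180 genes. Errors after ± are standard errors of a difference, or SDs where stated.

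Array medians lay between 1.65 and 1.77. Basal mice with animal numbers of 44 or higher (4 control, 3 palm oil; 7 in all) had interquartile ranges of 2.44 to 2.54, below the 2.72 to 2.96 of the other 9 basal arrays and the 2.64 to 2.85 of the clamped arrays. Results that changed between these sets of basal arrays are given both ways. The 8 hepatocyte markers averaged 9.95 to 10.5 in every array, as the liver label says. The 10 pancreatic acinar markers averaged over 6 in 12 arrays, of which 9 were basal, and their median difference between clamped and basal mice was -3.35 in control and -2.92 in palm oil mice. All 10 lay lower in clamped mice, by -2.27 to -4.45, and 0 of 10 passed the limma test in either comparison.

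In control mice the clamped livers had more signal than the basal livers for 5 of the 8 genes and less for 1. The interleukin 1 ligands Il1a and Il1b, the antagonist Il1rn and the receptors Il1r1 and Il1r2 rose, and Il1rap fell. Il18 and Il18bp did not pass the test. Over all genes, 8.75% were called in this comparison, 4.66% higher and 4.09% lower. The median log2 difference of the 8 genes was 1.02, against -0.02 over all genes. In palm oil mice, measured on other animals, the same 5 genes rose and Il1rap fell, with 7.57% of all genes called (3.76% higher, 3.8% lower). There the median was 1.12 against -0.02. Since the 8 genes were chosen with earlier results of these data known, these counts and medians describe them and do not test the family. The clamp comparisons share no arrays but share 1 estimate of the spread. In these whole-liver samples, more cells of a type and more RNA per cell cannot be told apart.

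**Figure D1:**
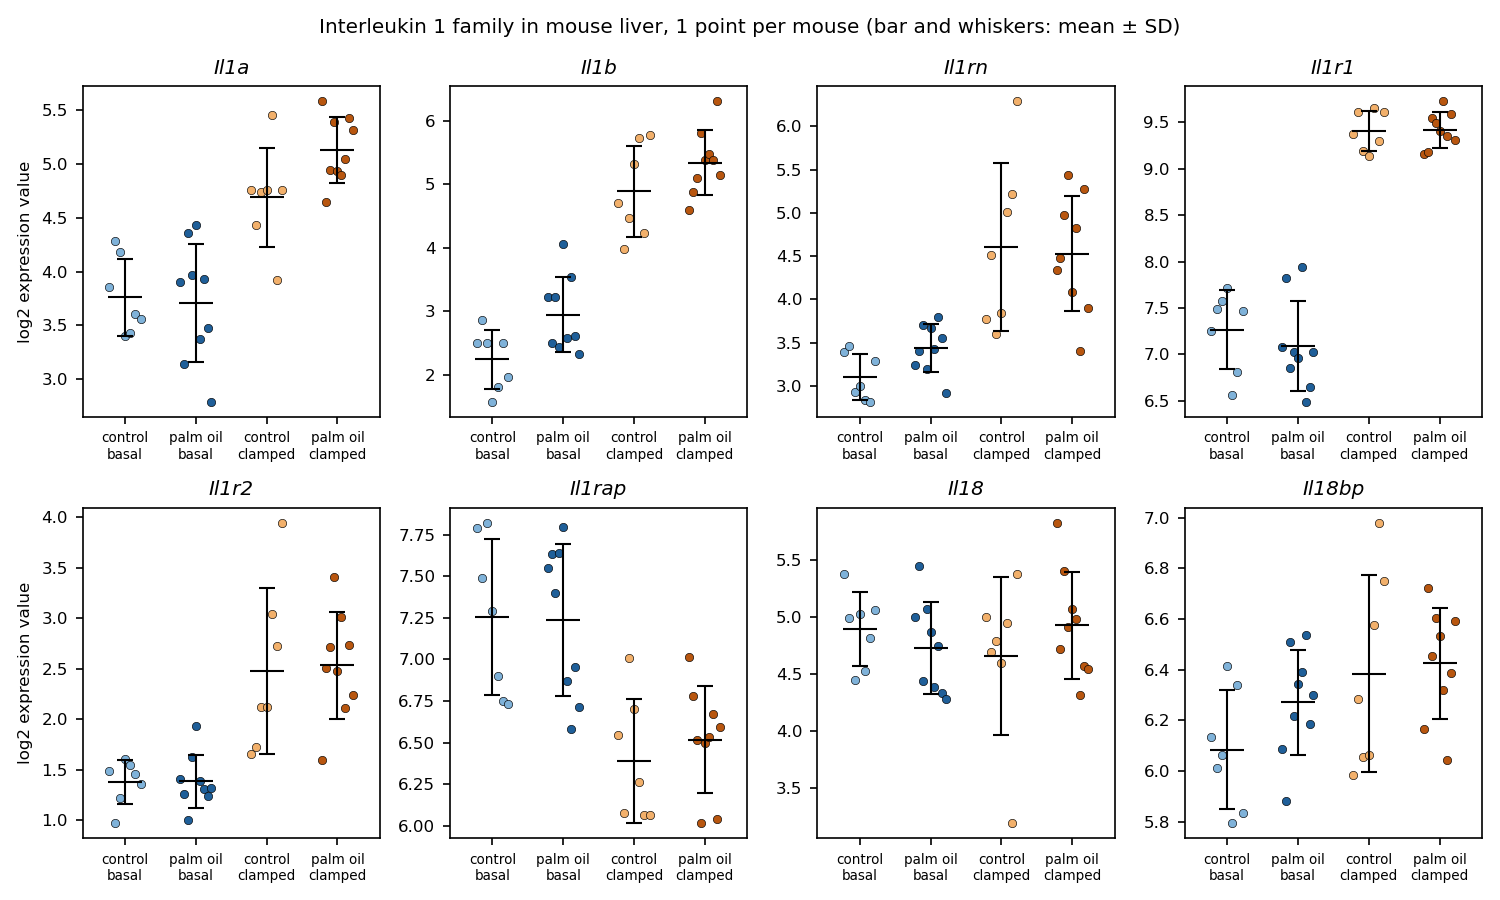
Log2 expression values (y axis, its range set for each gene) of the 8 interleukin 1 family genes in the 4 groups (x axis), with 1 point per mouse and a bar and whiskers for the mean and SD. The clamped mice lie above the basal mice without overlap for Il1b and Il1r1 in both gavage groups, and Il18 shows 1 control clamped mouse at 3.19, apart from the others.

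Il1b encodes the secreted ligand that is cleaved from a precursor. Its log2 value ran from 1.57 to 2.86 in control basal mice (median 2.5), from 2.32 to 4.06 in palm oil basal mice (median 2.62), from 3.99 to 5.78 in control clamped mice (median 4.71) and from 4.59 to 6.32 in palm oil clamped mice (median 5.38). Every clamped mouse lay above every basal mouse of its gavage group, and the lowest control clamped mouse lay just below the highest palm oil basal mouse. The difference was 2.65 ± 0.29 in control mice, or 6.26-fold with a 95% interval from 4.18 to 9.37 (limma adjusted p = 9.47e-08, n = 7 and 7). In palm oil mice it was 2.40 ± 0.25, or 5.28-fold (limma adjusted p = 3.48e-08, n = 9 and 9).

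Il1a encodes the ligand that is active without cleavage and often stays with the cell. It ran from 3.4 to 4.29 in control basal mice (median 3.61), from 2.79 to 4.43 in palm oil basal mice (median 3.9), from 3.92 to 5.46 in control clamped mice (median 4.76) and from 4.65 to 5.59 in palm oil clamped mice (median 5.05). All 9 palm oil clamped mice were above all palm oil basal mice, and 6 of 7 control clamped mice were above all control basal mice. The difference was 0.93 ± 0.22 in control mice (1.91-fold, limma adjusted p = 0.0043) and 1.42 ± 0.19 in palm oil mice (2.68-fold, limma adjusted p = 2.94e-06). The call in control mice was lost without the 7 basal arrays numbered 44 or higher (0.58, limma adjusted p = 0.247) and with those arrays as a block (0.63, limma adjusted p = 0.0967). It held without the basal arrays numbered under 44 (1.19, limma adjusted p = 0.000857).

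Il18, the third ligand, overlapped in all groups. Its medians were 5 in control basal, 4.75 in palm oil basal, 4.8 in control clamped and 4.91 in palm oil clamped mice, and its values ran from 3.19 to 5.83 over all mice. The clamped mice differed from the basal mice by -0.24 ± 0.24 in control mice (95% interval -0.73 to 0.25) and by 0.20 ± 0.21 in palm oil mice (95% interval -0.24 to 0.63). Without the low control clamped mouse the first of these was 0.01. The intervals leave out a change of the size measured for Il1b.

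Il1rn, the receptor antagonist, ran from 2.82 to 3.46 in control basal mice (median 3), from 2.92 to 3.8 in palm oil basal mice (median 3.43), from 3.6 to 6.29 in control clamped mice (median 4.51) and from 3.41 to 5.43 in palm oil clamped mice (median 4.48). The control groups did not overlap, and 8 of 9 palm oil clamped mice were above all palm oil basal mice. The SD was 0.97 in control clamped and 0.67 in palm oil clamped mice, against 0.27 and 0.28 in the basal groups. The clamped mice were higher by 1.5 ± 0.30 in control mice (2.84-fold, limma adjusted p = 0.000817) and by 1.09 ± 0.26 in palm oil mice (2.13-fold, limma adjusted p = 0.00619). The control call was lost without the 7 higher-numbered basal arrays (1.35, limma adjusted p = 0.0681), and the palm oil call without the 9 other basal arrays (1.10, limma adjusted p = 0.112). With the sets exchanged both held, at 1.62 in control mice (limma adjusted p = 0.00991) and 1.08 in palm oil mice (limma adjusted p = 0.0449).

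Il18bp, the interleukin 18 binding protein, had medians of 6.06, 6.3, 6.28 and 6.45 in control basal, palm oil basal, control clamped and palm oil clamped mice. In each gavage group 3 clamped mice lay above all basal mice and the rest overlapped. The difference was 0.30 ± 0.14 in control mice (limma adjusted p = 0.21) and 0.15 ± 0.12 in palm oil mice (limma adjusted p = 0.586), with 95% intervals of 0.01 to 0.59 and -0.10 to 0.40.

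Il1r1, the signalling receptor, lay far apart in the basal and clamped mice. Control basal mice lay between 6.56 and 7.71 (median 7.46) and palm oil basal mice between 6.49 and 7.94 (median 7.02), whereas control clamped mice lay between 9.14 and 9.66 (median 9.37) and palm oil clamped mice between 9.16 and 9.73 (median 9.41). No clamped mouse of either gavage group reached down to any basal mouse. Clamped mice were higher by 2.15 ± 0.18 in control mice (4.43-fold, 95% interval 3.42 to 5.72, limma adjusted p = 8.52e-10) and by 2.33 ± 0.16 in palm oil mice (5.02-fold, 95% interval 4.01 to 6.3, limma adjusted p = 4.69e-12). By p-value Il1r1 ranked 4 of all 22180 genes in control mice and 2 in palm oil mice.

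Il1r2, the decoy receptor, was dim in basal livers. It ran from 0.97 to 1.6 in control basal mice (median 1.45) and from 1 to 1.93 in palm oil basal mice (median 1.31), with both group means (1.38) under the median of all gene means, 1.83. In control clamped mice it ran from 1.65 to 3.95 (median 2.12) and in palm oil clamped mice from 1.6 to 3.41 (median 2.5). The control groups did not overlap, and 8 of 9 palm oil clamped mice were above all palm oil basal mice. It rose by 1.10 ± 0.25 in control mice (2.14-fold, limma adjusted p = 0.00342) and by 1.15 ± 0.22 in palm oil mice (2.22-fold, limma adjusted p = 0.000558). The control call was lost without the 9 basal arrays numbered under 44 (0.99, limma adjusted p = 0.0534) and when the 12 arrays with high acinar markers were left out (1.08, limma adjusted p = 0.126). It held without the basal arrays numbered 44 or higher (1.25, limma adjusted p = 0.0435). For a gene this close to background the fold of the array value understates a change in RNA.

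Il1b and Il1r1 were the 2 genes whose clamped and basal mice did not overlap in either gavage group. Il1rn and Il1r2 did not overlap in control mice alone, and Il1a in palm oil mice alone. Over all genes, 1.39% were higher in clamped mice without overlap in the control groups and 0.866% in the palm oil groups.

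**Figure D2:**
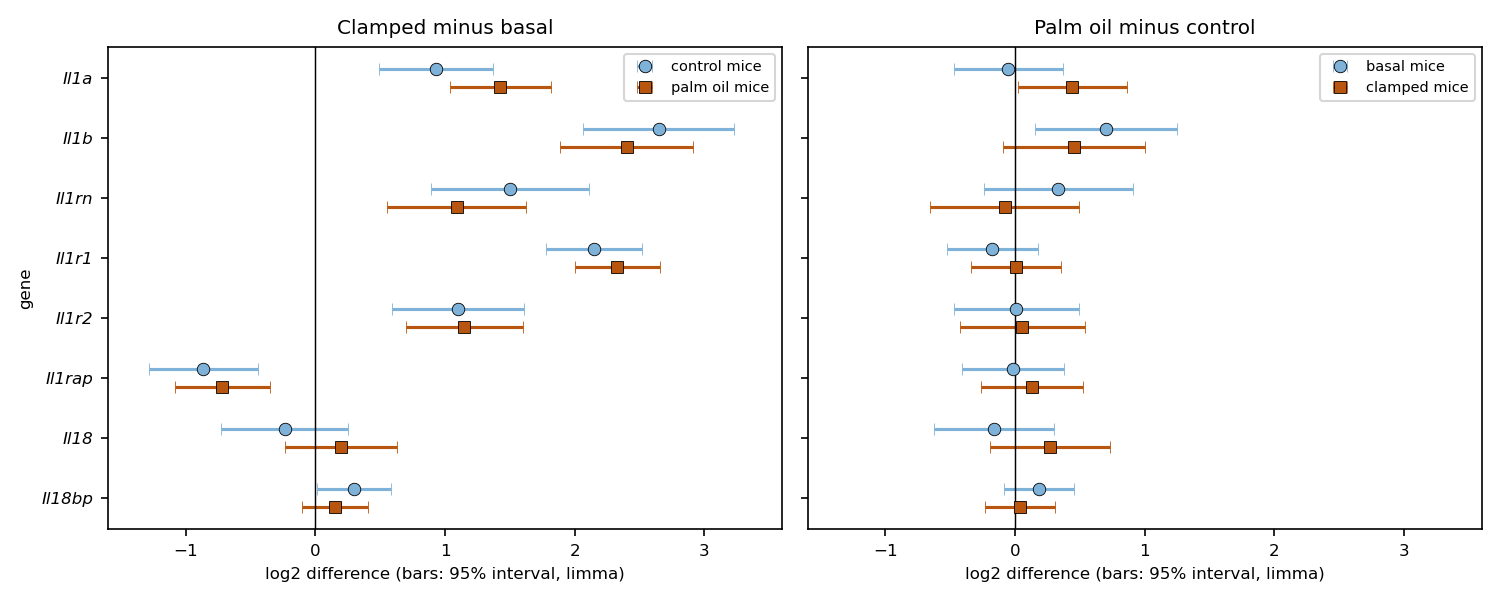
Log2 differences (x axis, with limma's 95% interval as bars) of the 8 genes (y axis) for clamped minus basal mice (left) and palm oil minus control mice (right). On the left the intervals of Il1a, Il1b, Il1rn, Il1r1 and Il1r2 lie above 0 and those of Il1rap below 0 in both gavage groups. The interval of Il18bp in control mice also lies above 0, without a call. On the right no gene was called, though the intervals of Il1b in basal mice (0.15 to 1.25) and Il1a in clamped mice (0.03 to 0.86) lie above 0. The intervals are not adjusted for the number of genes.

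Il1rap, the chain that IL1R1 needs for signalling, moved the opposite way. It ran from 6.73 to 7.82 in control basal mice (median 7.29), from 6.58 to 7.79 in palm oil basal mice (median 7.4), from 6.07 to 7.01 in control clamped mice (median 6.26) and from 6.02 to 7.02 in palm oil clamped mice (median 6.54). Of the clamped mice, 6 of 7 control and 5 of 9 palm oil mice lay below all basal mice of their gavage group. The difference was -0.86 ± 0.21 in control mice (1.82-fold lower, limma adjusted p = 0.00498) and -0.72 ± 0.18 in palm oil mice (1.64-fold lower, limma adjusted p = 0.00913). By an exact rank sum test over all genes the control difference had an adjusted p = 0.0656.

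Il1rap was the 1 gene of the 8 with several probe sets, and its 3 probe sets fell together. They are named by gene, and which Il1rap transcripts each one reads was not examined. The other probe sets differed by -0.68 ± 0.15 and -1.43 ± 0.29 in control mice (limma adjusted p = 0.00559 and 0.00205 over all probe sets). In palm oil mice they differed by -0.58 ± 0.13 and -1.19 ± 0.26 (limma adjusted p = 0.00698 and 0.00384). With the basal mice numbered 44 or higher alone, both palm oil calls were lost (-0.21, limma adjusted p = 0.465, and -0.81, limma adjusted p = 0.118), whereas both control calls held. These probe sets were looked at after the main values had been seen.

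The Il1rap difference depended on which basal animals were used. The 9 basal mice numbered under 44 averaged 7.55 ± 0.30 (SD), the 7 numbered 44 or higher averaged 6.85 ± 0.23 (SD), and the 16 clamped mice averaged 6.46 ± 0.34 (SD). With the lower-numbered basal mice alone, Il1rap fell by 1.31 in control mice (limma adjusted p = 0.000472) and by 0.96 in palm oil mice (limma adjusted p = 0.000397). With the higher-numbered basal mice alone, the difference was -0.53 in control mice (limma adjusted p = 0.0757) and -0.23 in palm oil mice (limma adjusted p = 0.553). The labels do not say what the animal numbers stand for. The part of the arrays' narrower spread in this result was not tested. With either set of basal mice, Il1b and Il1r1 passed in both gavage groups: Il1b rose by 2.27 to 2.93 and Il1r1 by 1.97 to 2.70.

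**Figure D3:**
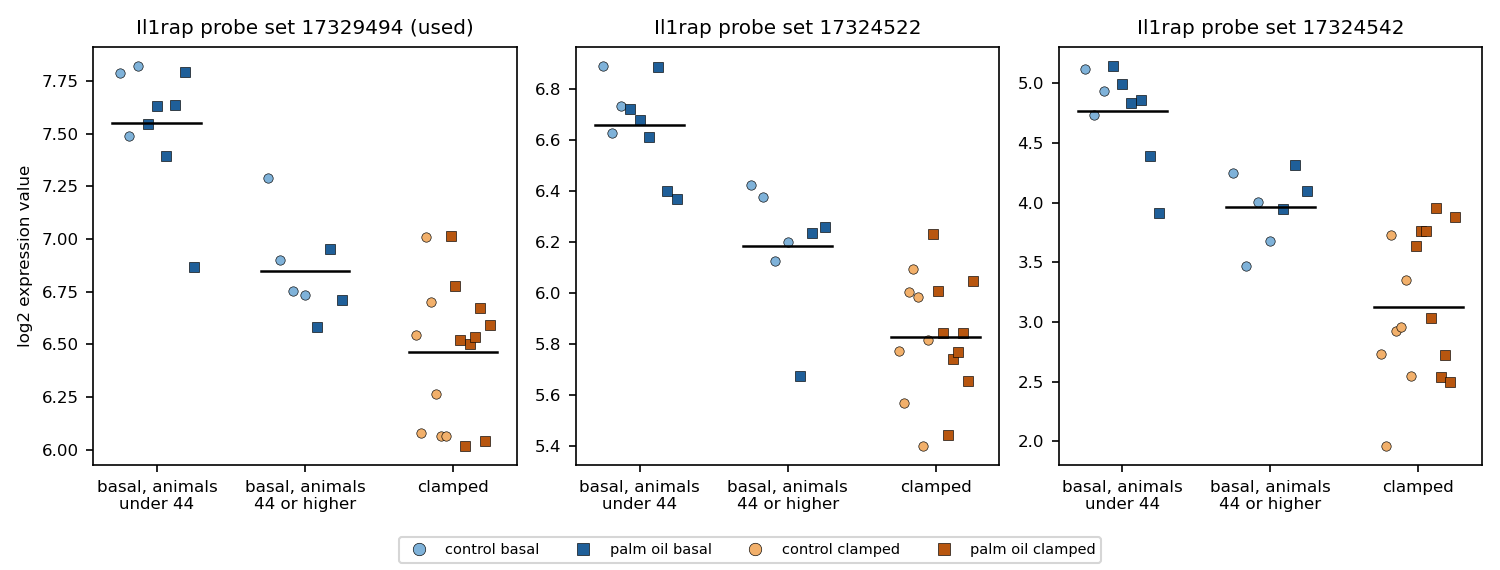
Log2 values (y axis) of the 3 Il1rap probe sets in basal mice numbered under 44, basal mice numbered 44 or higher and clamped mice (x axis), with 1 point per mouse, colours for the groups and lines for the means. In each probe set the mean of the basal mice numbered 44 or higher lies between those of the other basal mice and the clamped mice.

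Palm oil was compared with water next. None of the 8 genes passed in basal mice, in clamped mice or in the mean of both, and no gene of the whole array did (0% of 22180 called in each comparison by limma). At an unadjusted p under 0.05, 1 of the 8 genes was past the threshold in each of the 3 comparisons, against 5.11%, 3.52% and 4.69% of all genes.

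Il1b was that gene in basal mice and in the mean. Its palm oil minus control difference was 0.70 ± 0.27 in basal mice (limma adjusted p = 0.96), and 4 of 9 palm oil mice were above all 7 control mice. In clamped mice the difference was 0.46 ± 0.27 (limma adjusted p = 1), with 2 of 9 palm oil mice above all control mice. The mean of both was 0.58 ± 0.19 (95% interval 0.19 to 0.97, limma adjusted p = 0.999), which ranked 79 of 22180 by p-value. The basal difference was 0.38 ± 0.38 with the lower-numbered basal mice alone and 0.87 ± 0.40 with the higher-numbered ones alone, and neither was called. In clamped mice it was Il1a, at 0.44 ± 0.21 (limma adjusted p = 1), where 1 of 9 palm oil mice was above all control mice. In basal mice it differed by -0.05 ± 0.21. The palm oil and clamp comparisons share groups of arrays, so these values are not independent of those for the clamp.

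The other 6 genes lay closer together. In basal mice Il1rn differed by 0.33 ± 0.28 and Il18bp by 0.19 ± 0.13, while Il1r1 (-0.17 ± 0.17), Il18 (-0.16 ± 0.23), Il1rap (-0.02 ± 0.19) and Il1r2 (0.01 ± 0.24) were within their SE or next to it. In clamped mice Il18 differed by 0.27 ± 0.23, Il1rap by 0.13 ± 0.19, Il18bp by 0.04 ± 0.13, Il1rn by -0.08 ± 0.28 and Il1r2 by 0.06 ± 0.24. For Il1r1 the clamped groups differed by 0.01 ± 0.17 (95% interval -0.34 to 0.36), which leaves out a change in array value of more than 1.28-fold in either direction. The median of the 8 genes was -0.0043 in basal and 0.09 in clamped mice, against 0.0031 and 0.0013 over all genes.

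Whether the size of the clamp difference depended on palm oil was tested by the interaction. No member passed, and 0% of all genes did. The clamp difference in palm oil mice minus that in control mice was 0.49 ± 0.29 for Il1a, 0.43 ± 0.32 for Il18, 0.18 ± 0.24 for Il1r1, 0.15 ± 0.27 for Il1rap and 0.05 ± 0.34 for Il1r2. It was -0.41 ± 0.40 for Il1rn, -0.25 ± 0.38 for Il1b and -0.15 ± 0.19 for Il18bp. All had a limma adjusted p of 1, and 0 of the 8 had an unadjusted p under 0.05, against 3.49% of all genes. The 95% interval for Il1b, -1.02 to 0.53, does not show that the clamp acted alike in both groups.

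Among mice of the same group, the ligands Il1a and Il1b went together. Over the 32 deviations from the group means their Pearson r was 0.662 and their Spearman rho 0.677, each with an adjusted p of 0.00168 over the 28 pairs of members (permutation within groups, two-sided, 100000 resamples). The r was 0.806 in the 16 basal mice (permutation adjusted p = 0.0143) and 0.522 in the 16 clamped mice (permutation adjusted p = 0.146). It was 0.621 without the 2 arrays farthest from the median of Il1a and 0.596 without the 7 higher-numbered basal arrays. Il1rn and Il1r2 had r = 0.709 (permutation adjusted p = 0.0153) and rho = 0.577 (permutation adjusted p = 0.0728). Their r was 0.826 in clamped mice and -0.231 in basal mice, and 0.571 without the 2 farthest arrays (permutation adjusted p = 0.16), so that the relation rests on those arrays and on the clamped mice. No other pair passed with r over the 32 mice.

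**Figure D4:**
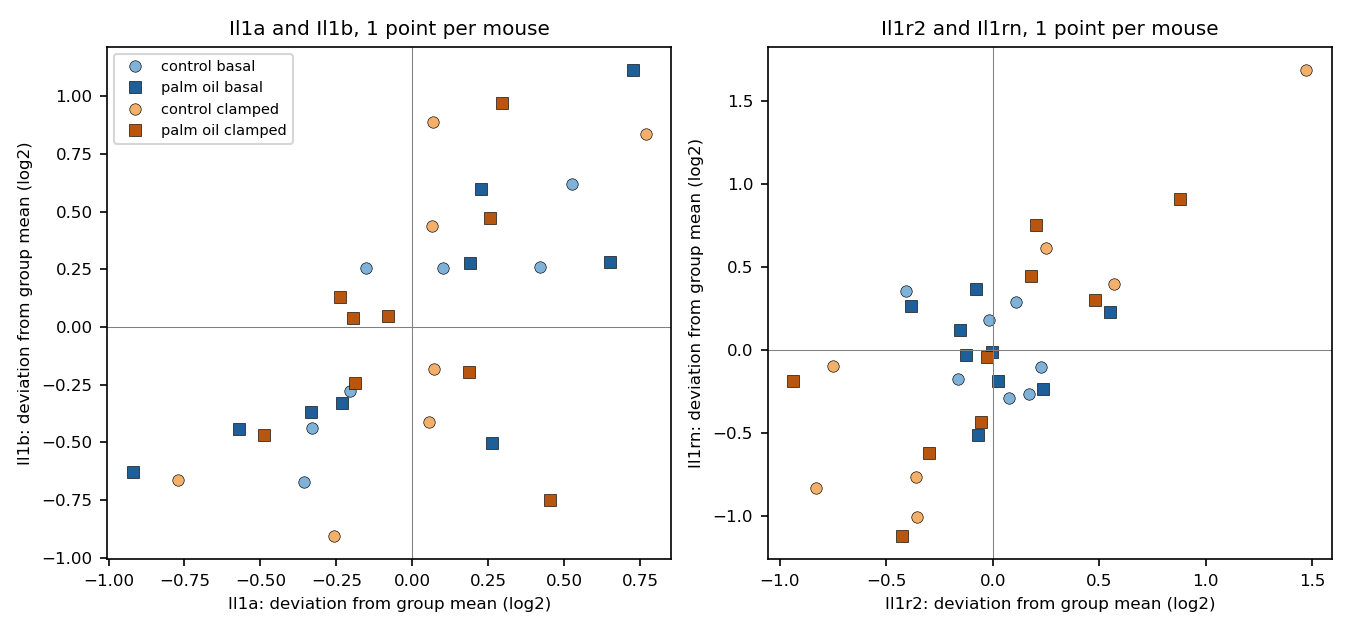
Deviations from the group mean (log2) of Il1b against Il1a (left) and of Il1rn against Il1r2 (right), with 1 point per mouse and colours and shapes for the 4 groups. On the left the 32 mice together spread along the diagonal (r = 0.662), while palm oil clamped replicate 1 lies off it, with Il1a at 0.45 and Il1b at -0.75. On the right the spread along it is that of the clamped mice (r = 0.826), with control clamped replicate 7 at the upper end.

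Control clamped replicate 7 was the highest of its group for Il1b (5.78), Il1rn (6.29), Il1r2 (3.95) and Il18 (5.38). Its 9 monocyte markers averaged 4.25, against 2.72 to 3.16 in the other control clamped mice. Over the 16 clamped mice, deviations of the monocyte marker mean correlated with those of Il1rn (r = 0.712) and Il1r2 (r = 0.73), as a description over arrays that share processing. These r include this mouse and were not computed without it. They were picked as high among all pairs of a member and a marker list. Il1b had a like r with the mast cell and basophil markers (0.723), whose mean was only 1.55 in control clamped and 1.52 in palm oil clamped mice. Without this mouse the control clamp differences were 1.22 for Il1rn, 0.86 for Il1r2 and 2.50 for Il1b, and all remained called.

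Markers of the cells that make interleukin 1 were read beside the members. These lists too were chosen with earlier results of these data known. Of all genes, 4.66% were called higher in control and 3.76% in palm oil mice. Of 14 neutrophil markers, 6 rose in clamped control mice and 6 rose and 1 fell in clamped palm oil mice. S100a8 rose by 3.58 in control and 3.85 in palm oil mice, whereas Ly6g, Mpo, Elane and Camp had group means of 0.97 to 1.5, below the median of all genes. The neutrophil marker mean ran from 1.67 to 2.23 in control basal, 1.67 to 1.93 in palm oil basal, 2.34 to 2.92 in control clamped and 2.42 to 2.97 in palm oil clamped mice. Of 11 Kupffer cell markers, 4 rose in each gavage group. Marco, a scavenger receptor, rose by 1.62 and 1.65 and Timd4 by 0.77 and 0.56, while Clec4f, a defining Kupffer cell lectin, differed by -0.22 and -0.10 without passing. The Kupffer marker mean ran from 5.02 to 5.43, 5.06 to 5.58, 5.24 to 5.97 and 5.45 to 5.91 in the groups in the same order. Of 9 monocyte markers 2 rose in each gavage group, and only Plac8 rose in both. The other was Fn1 in control mice and Chil3 in palm oil mice. Fn1 had a mean value of 10.2 and Plac8 of 4.12, while the other monocyte markers had means of 1.25 to 2.03. The monocyte marker mean ran from 2.53 to 2.77, 2.51 to 2.86, 2.72 to 4.25 and 2.64 to 3.81. T and NK cell markers (9 measured) had none called. The part of these cells in the members' differences was not tested.

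Il1rap and Il1r1 also moved with marker lists, and not with the same ones in basal and clamped mice. Deviations of the hepatocyte marker mean had r = 0.654 with Il1rap (0.828 in the 16 basal mice, 0.185 in the 16 clamped mice) and r = 0.567 with Il1r1 (0.659 and 0.0773). Among basal mice Il1rap moved nearly as closely with the sinusoidal endothelial markers (r = 0.8) and against the T and NK cell markers (r = -0.709). Among clamped mice Il1r1 moved with the neutrophil markers (r = 0.714) and Il1rap against them (r = -0.607). The basal values cover both sets of animal numbers, and all are descriptions over arrays that share processing. Like the monocyte values, they were picked for their size among all pairs of a member and a marker list. Tat is 1 of the 8 hepatocyte markers and is also among the genes most like Il1r1 (r = 0.764), so the hepatocyte r is not separate from it. Of the 8 hepatocyte markers, 3 rose in clamped control mice and 2 in clamped palm oil mice, none fell, and their mean ran from 10.02 to 10.37, 9.95 to 10.31, 10.31 to 10.5 and 10.33 to 10.48 in the 4 groups. Tat and Hnf4a passed in both gavage groups and Serpina1a in control mice, while Alb, Apoa1, Ttr, Cps1 and Cyp2e1 passed in neither. The part of these marker lists in the differences of Il1rap and Il1r1 was not tested.

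The genes whose deviations were most like those of each called member were ranked by Pearson r over the 32 mice, among 10200 genes brighter than the median. They are the highest of many and are given without a test. For Il1r1 they were Serpina3n, an acute phase serine protease inhibitor (r = 0.77), Tat, the tyrosine aminotransferase (0.764), and Trim43c (0.714). All 3 also rose in both clamp comparisons, Serpina3n by 1.13 and 1.06 and Tat by 0.67 and 0.83. For Il1r2 they were Spic, a macrophage transcription factor (0.745), Acod1, which makes itaconate (0.736), and Fcer1g, a signalling chain of Fc receptors (0.734), with r of 0.301, -0.205 and 0.516 among basal mice and 0.791, 0.808 and 0.798 among clamped mice. For Il1rn they were Tgm2 (0.761), Zbp1, a sensor of nucleic acids (0.757), and St6gal1 (0.755), with r of -0.363, 0.396 and 0.0365 among basal mice.

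For Il1b the nearest genes were Flna, the actin crosslinker filamin A (0.658), Abcc5 (0.64) and Pdgfrb, a receptor of mesenchymal cells (0.615). Il1b and Il1a had r = 0.662, above all of these. For Il1a they were Bclaf1 (0.755), Sult1c2 (0.721) and Rev1 (0.715). For Il1rap they were Tmco1 (0.866), Yipf4 (0.846) and Pecr (0.837), with r of 0.978, 0.942 and 0.897 among basal mice, which hold both sets of animal numbers. None of the genes nearest to Il1a or Il1b was called in control mice, and Sult1c2 (-0.93, limma adjusted p = 0.0233) was the one called in palm oil mice.

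The rest of the pathway was described by 5 lists, leaving out the 8 members. These lists were chosen with earlier results of these data known, so their counts are descriptions and not tests of a pathway. Over all genes, 4.66% were called higher and 4.09% lower in control mice, and 3.76% and 3.8% in palm oil mice. None of the 8 measured other ligands and receptors of the family passed in either clamp comparison. Of these, 7 had a mean value of 1.04 to 1.71, under the median of all gene means (1.83), so that a change in their RNA might not show, and Sigirr alone was brighter (4.55). Il1rl2, the receptor of interleukin 36, differed by -0.27 ± 0.12 between clamped and basal control mice and by 0.09 ± 0.10 in palm oil mice. For Sigirr, an inhibitory family receptor, these values were 0.27 ± 0.16 and 0.11 ± 0.14. Il1rapl1 differed by -0.21 ± 0.11 and -0.02 ± 0.09. Il36a, Il36b, Il36g, Il36rn and Il1rl1 are not analysed here.

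Of 21 inflammasome and processing genes, 4 rose and 1 fell in control mice and 2 rose and 1 fell in palm oil mice, with median differences of 0.05 and 0.03. Casp4, the inflammatory caspase that senses lipopolysaccharide, rose by 0.98 ± 0.21 and 0.63 ± 0.18 (limma adjusted p = 0.00167 and 0.0279). Txnip, which can bind NLRP3 and is also known to respond to glucose and insulin, fell by 1.17 and 0.81 (limma adjusted p = 1.76e-05 and 0.000471). Prtn3, a neutrophil protease, rose by 0.83 ± 0.24 in control mice (limma adjusted p = 0.0231), with 0.26 ± 0.21 in palm oil mice.

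Of 19 receptor adaptors and kinases, 3 rose and 1 fell in control mice, and 2 rose and 1 fell in palm oil mice. No gene of the list was called in both. Irak4 and Chuk are not analysed here. Irak3 rose by 1.64 ± 0.44 in control mice (limma adjusted p = 0.0129), with 1.19 ± 0.39 in palm oil mice (limma adjusted p = 0.051). The genes called in palm oil mice were Tab2 (0.46 ± 0.11), Mapk14 (0.39 ± 0.10) and Irak2 (-0.67 ± 0.13). Myd88, the adaptor of IL1R1, rose by 0.80 ± 0.18 in control mice (limma adjusted p = 0.00294), with 0.48 ± 0.16 in palm oil mice (limma adjusted p = 0.0576). Map2k4 rose by 0.53 ± 0.13 and Map2k6 fell by 1.05 in control mice, both kinases that activate stress kinases. In palm oil mice their differences of 0.32 ± 0.12 and -0.52 ± 0.23 did not pass.

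Of 12 NF-kappaB subunits and inhibitors, 7 rose and none fell in each gavage group, with medians of 0.64 and 0.62. Rel, a subunit of lymphoid and myeloid cells, rose by 1.25 ± 0.21 and 1.24 ± 0.19. Nfkbiz, a nuclear co-factor of interleukin 1 target genes, rose by 1.17 ± 0.20 and 1.46 ± 0.18. Bcl3, another nuclear member of the inhibitor family, rose by 1.82 ± 0.25 and 1.31 ± 0.22. Their limma adjusted p-values lay between 4.32e-07 and 0.00012. The subunit gene Nfkb1 is not analysed here.

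Of 24 genes known to respond to interleukin 1, 18 rose and none fell in each gavage group, with medians of 1.08 and 1.12 against -0.02 over all genes. Of all genes, 4.66% were called higher in control and 3.76% in palm oil mice. The 24 genes were listed with earlier results of these data known, so the count does not test a response to interleukin 1. Lcn2, which binds bacterial siderophores, rose by 4.5 ± 0.38 and 4.40 ± 0.33 (limma adjusted p = 8.52e-10 and 4.91e-11). Cxcl1, a neutrophil chemokine, rose by 3.17 ± 0.35 and 3.59 ± 0.31, and Steap4, a metalloreductase of inflamed tissue, by 2.47 ± 0.25 and 2.09 ± 0.22. Many of these genes also answer to interleukin 6 and other cytokines. Saa1 and C3, of the same list, are not analysed here. In none of the 5 lists did a gene pass for palm oil against control in basal or in clamped mice.

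**Figure D5:**
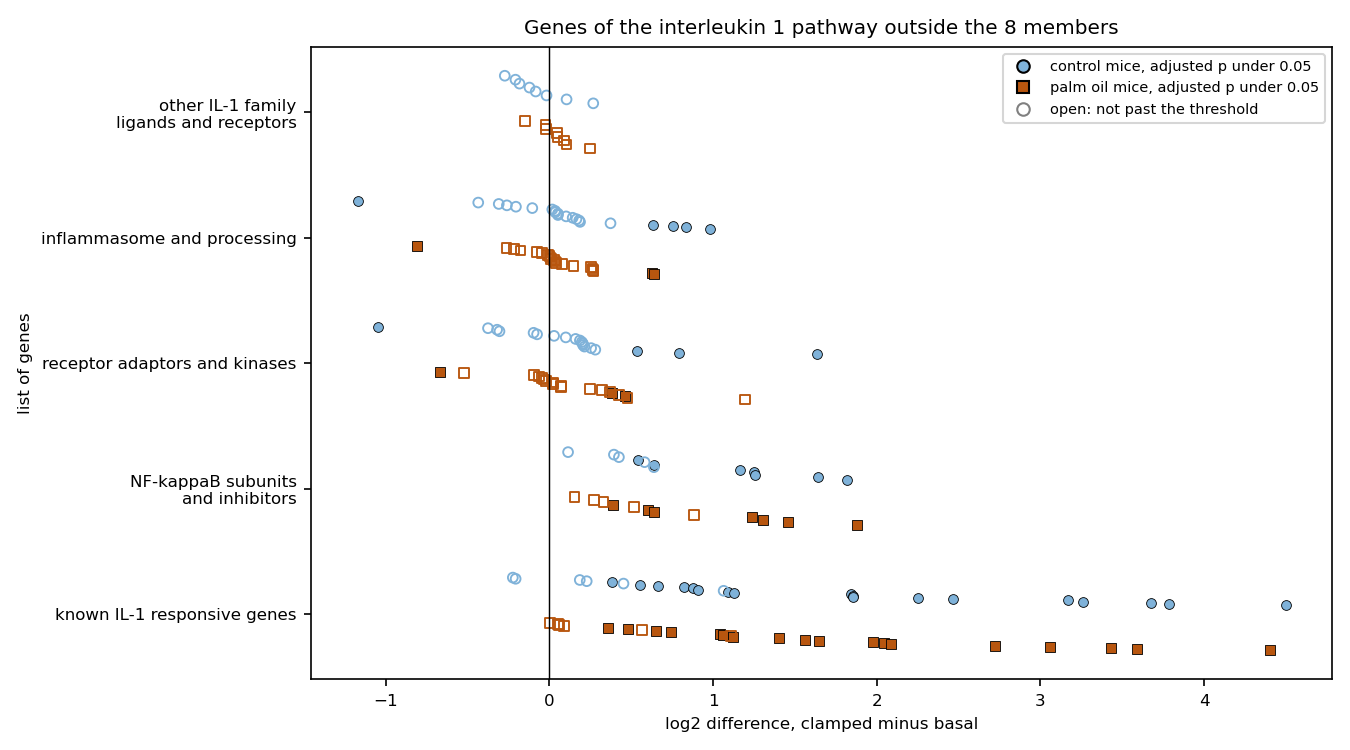
Log2 difference of clamped minus basal mice (x axis) for each gene of the 5 pathway lists (y axis), as circles in control mice and squares in palm oil mice, filled where the limma adjusted p is under 0.05. Filled points gather to the right among NF-kappaB genes (7 of 12 in each gavage group) and known interleukin 1 responsive genes (18 of 24), and no point of the other family ligands and receptors is filled.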

How the data were processed

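Liver RNA of 32 mice was measured on 1 array each. Per the submitters' processing notes, the authors used Affymetrix Expression Console (1.3.0.187) and RMA, and deposited log2 values. RMA corrects background, normalizes between arrays and summarises probe sets. The values were used as deposited, and scanner files were not used here.

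Of 41345 probe sets, a platform annotation named 23521 with 1 gene symbol and 1814 with several. The other 16010 stay unnamed. Of several probe sets for a gene, the one with the highest mean was taken, which left 22180 genes. Groups came from sample titles. Limma 3.58.1 (R 4.3.3, lmFit and eBayes) was fitted to all 32 arrays with 1 mean per group (28 residual degrees of freedom), giving 6 contrasts with Benjamini-Hochberg adjustment over all genes, a threshold of 0.05 and 95% intervals. Each array is a separate mouse, so the number of arrays limits the precision. The limma fit was tested on simulated data.

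The members and all gene lists were chosen with earlier results of these data known, and TATAAA was added to the motifs after the sequences had been seen. All members are named. Other named genes are the 3 of each pathway list with the smallest p in clamped minus basal control mice and the 3 bright genes most like each member called in both clamp comparisons. Irak2, Irak3, Tab2, Mapk14 and the other named markers were picked after their values were seen, to show which parts of a list moved. Replicate numbers do not pair the mice.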

Additional observations from a re-analysis of the deposited data

Results flagged for a closer look

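In 1 of the 32 combinations of a member and a group, 1 sample lay far from the others by Dixon's criterion, which chance meets in about 5% of groups. Il18 was 3.19 in control clamped replicate 6, against 4.60 in the nearest other mouse of the group. The gap was 0.642 of the group's range, above the critical 0.568. Without this mouse, Il18 differed between clamped and basal control mice by 0.01 ± 0.20, against -0.24 ± 0.24 with it.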

How the results depend on the processing

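The count of members called was 6 in both clamp comparisons, 0 in the palm oil comparisons and 0 in the interaction in each of the 32 fits that left out 1 array. Over the other alternatives run, the clamp counts lay between 4 and 6 and the palm oil and interaction counts stayed at 0. With the replicate block the counts were 6 in both clamp comparisons and 0 in the others. Same-numbered mice did not in general deviate together. Over the 4 pairings of groups the correlation of a pair ran from -0.256 to 0.36 (median 0.0882), -0.291 to 0.281 (-0.0623), -0.363 to 0.036 (-0.000785) and -0.189 to 0.207 (0.021). In the same order, 1 of 7, 1 of 7, 0 of 7 and 1 of 9 mice correlated best with their own number. Il1b and Il1r1 stayed called in both clamp comparisons under every alternative run, with differences between 1.89 and 3.00 in control mice and between 2.14 and 2.70 in palm oil mice.

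The number of member pairs that correlated within groups, 2 over all arrays, was 1 in the 16 basal arrays, 1 without the 2 farthest arrays and 6 when the 7 basal mice numbered 44 or higher were left out. In the 16 clamped arrays Il1rn passed with Il1r2 and with Il1rap (r = -0.738, permutation adjusted p = 0.0304), and Il1a with Il1b did not pass. Il1r1 and Il1rap had r = -0.694 in clamped arrays (permutation adjusted p = 0.0514) and 0.336 in basal arrays. The r of Il1rn and Il1r2 reversed to -0.231 in basal arrays. The cause was not tested. Without the 12 arrays high in acinar markers, palm oil differences in basal mice were 0.17 for Il1a, 0.22 for Il1rap and 0.32 for Il18, none called. Animal number, catheter, tracer and anaesthetic cannot be told apart from the clamp.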
